A study of Mus musculus with 8 samples.

Results

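The genes described here are 10 regulators of the Arp2/3 complex in CAD cells, a mouse catecholaminergic neuronal line: Wasf1, Wasf2, Cyfip1, Cyfip2, Nckap1, Nckap1l and Abi1 of the WAVE complex, and Wasl, Wipf1 and Wipf2 of the N-WASP branch. They were taken by name from the 23038 genes of the deposited table, and all 10 were found. RNA-seq libraries had been made from 4 samples of control cells and 4 of PFN1 knockout cells, made by CRISPR/Cas9 targeting of Pfn1, whose product profilin 1 binds actin monomers. All cells were grown undifferentiated in 8% fetal bovine serum. The control samples are titled wild type but carry the genotype label "Control KO", and what they received is not stated. Whether each group was 1 clone or a mixed population is not stated either, and the p-values therefore reflect sample-to-sample spread alone, which may be technical.

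The Arp2/3 complex starts new actin filaments as branches on existing ones, and it needs an activator. WAVE proteins (Wasf genes) and N-WASP (Wasl) carry at their C-terminal end the region that binds an actin monomer and Arp2/3. In the WAVE complex this end is held back by CYFIP and NCKAP proteins, together with ABI and BRK1, until the GTPase Rac binds. N-WASP is opened by the GTPase Cdc42 and is bound by the WIP proteins (Wipf genes), and the proline-rich stretches of both kinds of activator can bind profilin. In neurons WAVE-driven branching is known for its place in growth cones and dendritic spines.

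Levels are RPKM, reads per kilobase of gene scaled to the total reads of the library, which can be compared between genes. Each library held an estimated 26200000 to 34500000 reads. Pfn1 fell from 423 ± 16.4 RPKM (SD, n = 4) in control to 139 ± 10.8 RPKM (SD, n = 4) in knockout libraries, or 32.9% of control, so transcript of the targeted gene remained. Among the defining genes of the cell line, Phox2a and Hand2 were at 144 and 208 RPKM in control libraries, and the catecholamine synthesis enzyme genes Dbh, Th and Ddc were at 31.7, 2.25 and 0.339 RPKM. Of 14 tested genes that mark the line, 6 were called higher and 4 lower in knockout, against 30.4% and 15.5% of all tested genes. With median-of-ratios scaling, explained below, 5 were higher and 4 lower, against 22.5% of all tested genes higher and 2871 of 11444 lower. Dbh was at 32.7%, Th at 34.3% and Chgb, a granin gene, at 214% of control. Dbh and Chgb both lie on chromosome 2, whose shift is described below. The part of these marker changes in the results below was not tested. The group comparison was made with limma on log2(RPKM + 1), with calls made where the Benjamini-Hochberg adjusted p was below 0.05 among the 11465 genes whose mean reached 1 RPKM in at least 1 group. All log2 fold changes below are on that scale, which understates the change of genes near or below 1 RPKM.

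In control cells the genes spanned a wide range of levels, led by Nckap1 at 92.2 RPKM. Wasf1 followed at 42.8, Wasl at 33.7, Wasf2 at 29.2 and Abi1 at 22.6 RPKM, and no library of one overlapped the range of the next. Cyfip2 at 16.9 RPKM and Cyfip1 at 16.3 RPKM came next, and their values overlapped. Wipf2 lay at 6.42, Wipf1 at 1.46 and Nckap1l at 0.623 RPKM. In knockout libraries the order was the same, but Wasf1, at 36.3 RPKM, now overlapped Wasl, at 35.6 RPKM, and Abi1, at 26.5 RPKM, overlapped Wasf2, at 27.7 RPKM. Nckap1l was backed by an estimated 84 to 200 reads a library and Wipf1 by 168 to 358, against 8995 to 14185 for Nckap1.

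In PFN1 knockout libraries 4 of the 10 genes were higher, namely Nckap1, Nckap1l, Abi1 and Wipf1, and 2 were lower, Wasf1 and Wipf2, while Wasf2, Wasl, Cyfip1 and Cyfip2 did not pass the test. Of all tested genes 30.4% were called higher, 15.5% lower and 45.9% in either direction, so 6 calls among 10 genes lie near that background. The groups did not overlap for 4 of the 10, Wasf1, Nckap1, Nckap1l and Wipf1, against 41.4% of all tested genes. The median log2 fold change of the 10 genes was 0.03, and that of all tested genes 0.06. With median-of-ratios scaling, which sets the typical gene to no change, these medians were -0.04 and -0.01, and 3 of the 10 were called higher and 4 lower, since Abi1 lost its call and Wasf2 and Cyfip1 gained one. With that scaling 22.5% of all tested genes were called higher, and 2871 of 11444 lower. Control library 4 and knockout library 1 had the shares of ribosomal reads that differed most from the rest of their groups. Without them, 5 of the 10 genes were higher and 1 was lower. Among all tested genes 4415 were then higher and 1572 lower, against 3489 and 1772 with all 8 libraries. The libraries left had 13.2 to 14.2% of reads from ribosomal precursor RNA in control and 8.4 to 9.1% in knockout. When libraries were rescaled without the ribosomal precursor Rn45s and the 10 genes with most reads, 4 of the 10 regulators were higher and 3 lower. Of 11455 tested genes 2998 were then higher and 2429 lower. This rescaling also leaves out other genes, and the part of the ribosomal share alone in the counts was not tested.

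**Figure D1:**
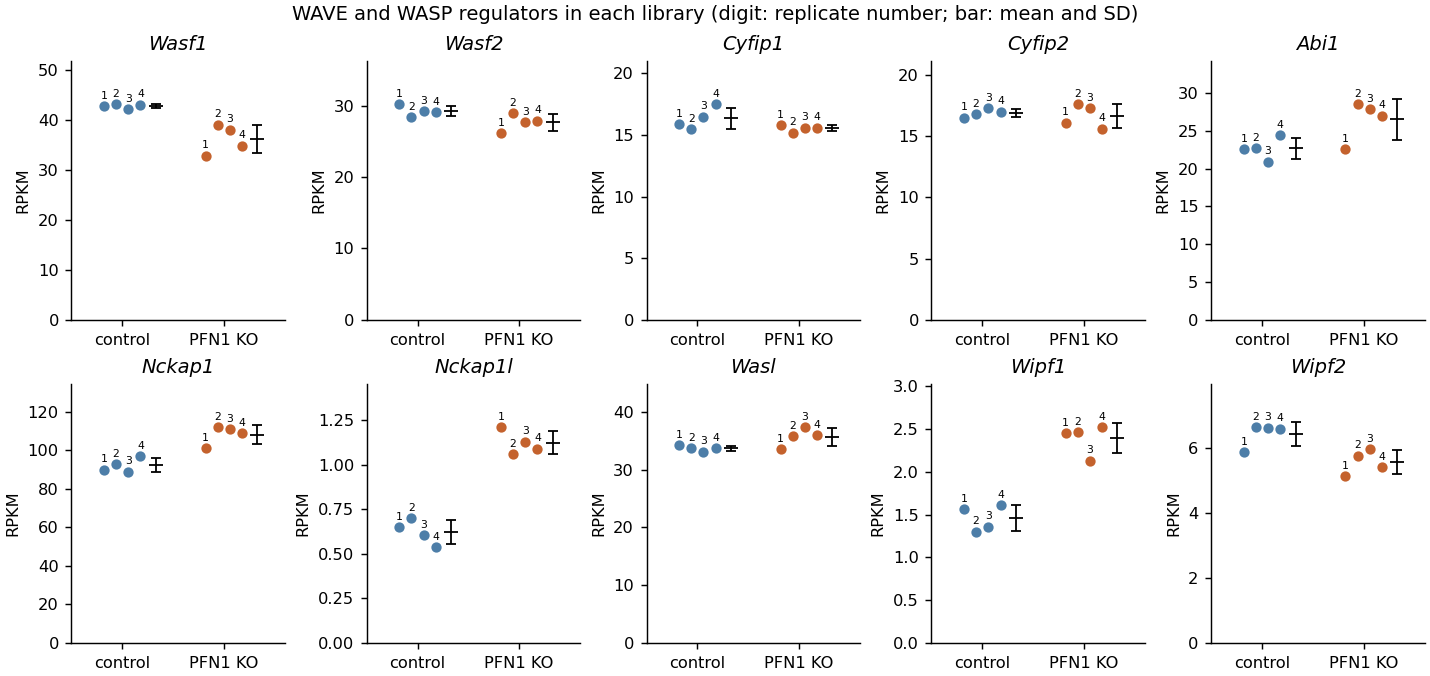
RPKM (vertical axes, each starting at 0) of the 10 genes in 4 control and 4 PFN1 knockout libraries, with 1 point per library, its replicate number, and the mean and SD beside each group. Nckap1l, Wipf1 and Nckap1 are higher in all 4 knockout libraries than in any control library, and Wasf1 is lower.

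Among the WAVE genes, Wasf1, which encodes the WAVE1 protein abundant in brain, fell. It stood at 42.8, 43.2, 42.2 and 43.1 RPKM in control libraries 1 to 4 and at 32.9, 39.1, 38.1 and 34.9 RPKM in knockout libraries 1 to 4. Every knockout value lay below every control value, and the spread was wider in the knockout libraries, with libraries 1 and 4 lowest. The level was 84.7% of control, with a log2 fold change of -0.24 (SE 0.052, adjusted p = 0.00316, limma), and it stayed called in all 19 alternatives (adjusted p 0.000492 to 0.0127). In bulk RNA, fewer cells that express a gene and less RNA per cell cannot be told apart.

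Wasf2, which encodes the widely expressed WAVE2, was at 30.2, 28.4, 29.2 and 29.1 RPKM in control and 26.1, 29.0, 27.7 and 27.9 RPKM in knockout libraries. The groups overlapped, because knockout library 2 lay among the controls. The log2 fold change was -0.08, with a 95% interval of -0.17 to 0.02 (adjusted p = 0.157, limma). Its call depended on the scaling, with adjusted p = 0.0165 with median-of-ratios scaling, 0.0184 with upper-quartile scaling and 0.0294 when libraries were rescaled without the ribosomal precursor Rn45s and the 10 genes with most reads. The ratio of Wasf2 to Wasf1 within a library, which no scaling of libraries alters, was 0.706, 0.657, 0.693 and 0.675 in control and 0.793, 0.742, 0.726 and 0.799 in knockout libraries. Every knockout ratio was higher, and the mean rose from 0.683 ± 0.0213 to 0.765 ± 0.0367 (each with SD over 4 libraries). The two-sided exact permutation test gave p = 0.0286, which is the smallest for 4 against 4 libraries (0.0381 adjusted over the 4 paralog ratios computed).

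For the WAVE pair and the WIP pair, whose ratios moved, the promoter sequences of RefSeq on GRCm38.p6 are shown so that the start regions of the paralogs can be compared. Each runs from 250 bases before to 50 bases after an annotated start, 5′ to 3′ on the gene's strand, with CpG dinucleotides in capitals. Wasf1 lies at chr10:40883284-40883583 on the plus strand, Wasf2 at chr4:133130383-133130682 on the plus strand, the first of 3 Wipf1 starts at chr2:73529438-73529737 on the minus strand, and Wipf2 at chr11:98863348-98863647 on the plus strand.
Wasf1: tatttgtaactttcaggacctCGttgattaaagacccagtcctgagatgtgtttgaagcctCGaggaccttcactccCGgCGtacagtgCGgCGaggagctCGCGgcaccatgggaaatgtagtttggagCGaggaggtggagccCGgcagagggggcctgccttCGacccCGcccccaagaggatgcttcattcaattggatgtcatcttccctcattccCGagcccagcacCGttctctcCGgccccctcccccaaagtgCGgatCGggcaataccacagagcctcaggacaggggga
Wasf2: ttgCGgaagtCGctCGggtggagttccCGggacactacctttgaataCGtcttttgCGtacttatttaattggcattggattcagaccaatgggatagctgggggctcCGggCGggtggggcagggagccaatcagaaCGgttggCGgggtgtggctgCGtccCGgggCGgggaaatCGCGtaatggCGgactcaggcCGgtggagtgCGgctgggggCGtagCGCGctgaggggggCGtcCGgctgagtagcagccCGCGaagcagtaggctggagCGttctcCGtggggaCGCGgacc
Wipf1: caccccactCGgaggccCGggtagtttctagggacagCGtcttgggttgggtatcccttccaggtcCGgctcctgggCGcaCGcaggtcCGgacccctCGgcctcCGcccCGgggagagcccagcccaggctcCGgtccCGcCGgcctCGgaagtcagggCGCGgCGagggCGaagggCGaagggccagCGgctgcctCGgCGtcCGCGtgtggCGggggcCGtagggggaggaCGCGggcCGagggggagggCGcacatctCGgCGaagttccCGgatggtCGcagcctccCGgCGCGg
Wipf2: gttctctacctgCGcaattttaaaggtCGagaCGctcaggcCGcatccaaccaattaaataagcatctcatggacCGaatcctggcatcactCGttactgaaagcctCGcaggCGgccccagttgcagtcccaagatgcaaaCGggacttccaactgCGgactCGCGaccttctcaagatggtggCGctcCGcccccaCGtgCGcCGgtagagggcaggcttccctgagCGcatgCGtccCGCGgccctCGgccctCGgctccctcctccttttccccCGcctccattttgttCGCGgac

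These windows held 17 CpG dinucleotides for Wasf1, 29 for Wasf2, 37 for Wipf1 and 26 for Wipf2. Among the 32851 promoter windows of the same table, 31.4% held at least as many as Wasf1, 12.9% as Wasf2, 5.58% as Wipf1 and 16.9% as Wipf2. The other 2 Wipf1 starts held 4 and 1, and the deposited table gives 1 value per gene, so the use of each start was not measured. Promoters were found for 7 of the 10 genes, in 10 windows, and Cyfip1, Nckap1 and Nckap1l had no entry. None of the 10 windows held the CArG box, the site of the serum response factor whose cofactors bind free actin, on either strand, against 1.63% of all windows. None held TATAAA on either strand, against 13.6% of all windows. With shares this low, 10 windows are too few for either absence to set these promoters apart.

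The CYFIP proteins carry the surface of the WAVE complex to which Rac binds. Cyfip1 was at 15.9, 15.5, 16.5 and 17.5 RPKM in control and 15.8, 15.2, 15.6 and 15.6 RPKM in knockout libraries, so the groups overlapped. Its log2 fold change was -0.06, with a 95% interval of -0.17 to 0.04 (adjusted p = 0.283, limma), and the call appeared with median-of-ratios scaling (adjusted p = 0.0184) and upper-quartile scaling (adjusted p = 0.0264). Its span overlaps that of Nipa2 in RefSeq, and whether counting used strand is not stated; Nipa2 itself was called lower, with a log2 fold change of -0.26 (adjusted p = 0.00501, limma).

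Cyfip2, the paralog known for its expression in neurons, was at 16.5, 16.8, 17.3 and 17.0 RPKM in control and 16.1, 17.6, 17.3 and 15.6 RPKM in knockout libraries. The knockout values lay on both sides of the control values, with libraries 1 and 4 below all controls and library 2 above them. The log2 fold change was -0.02, with a 95% interval of -0.12 to 0.09 (adjusted p = 0.789, limma). The ratio of Cyfip2 to Cyfip1 was 1.03 ± 0.047 in control and 1.07 ± 0.0739 in knockout libraries (each with SD over 4 libraries), and by two-sided exact permutation p was 0.429, a difference within the spread between libraries.

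Nckap1, which encodes the NCKAP1 (Nap1) scaffold that pairs with CYFIP, rose from the highest level among the 10 genes. It stood at 90.0, 92.9, 89.0 and 97.0 RPKM in control libraries and at 101, 112, 111 and 109 RPKM in knockout libraries. The lowest knockout value, in library 1, lay above the highest control value, in library 4. The rise was 1.18-fold in mean RPKM, with a log2 fold change of 0.23 (SE 0.042, adjusted p = 0.000978, limma), and it stayed called in all 19 alternatives.

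Nckap1l, the paralog also named Hem1 and known from blood cells, rose from a level under 1 RPKM. Its values were 0.648, 0.701, 0.603 and 0.539 RPKM in control and 1.21, 1.06, 1.13 and 1.09 RPKM in knockout libraries. The groups were well apart, at 0.623 ± 0.0687 and 1.12 ± 0.0632 RPKM (SD, n = 4 each), 1.8-fold in mean RPKM. On the log2 scale it differed by 0.39 (SE 0.067, adjusted p = 0.000748, limma), and 0.76 with 0.1 instead of 1 added to RPKM. Nckap1l met the minimum of 1 RPKM only through the knockout group. With a filter on the mean of all 8 libraries at 0.5 RPKM, which does not favour either group, the adjusted p was 0.000589. Markers of blood cells were near 0 in both groups: the 12 markers listed summed to between 0.354 and 0.72 RPKM in control and between 0.349 and 0.742 RPKM in knockout libraries, and 4 of them, Laptm5, Vav1, Cd3e and Tyrobp, were listed at 0 in every library. Ptprc, which encodes the pan-leukocyte protein CD45, was at 0.00347 and 0.00761 RPKM.

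Because Nckap1 was so much more abundant, Nckap1l remained a small part of the pair. The ratio of Nckap1l to Nckap1 was 0.00721, 0.00754, 0.00677 and 0.00556 in control and 0.0119, 0.00947, 0.0101 and 0.01 in knockout libraries. No knockout ratio fell within the control range, and the ratio rose 1.54-fold (exact permutation p = 0.0286, two-sided, the smallest possible; 0.0381 adjusted over the 4 ratios). Nckap1l made up 0.672% of the summed RPKM of the pair in control and 1.03% in knockout libraries.

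Abi1, which encodes the Abl interactor that joins WAVE to the rest of the complex, was at 22.6, 22.7, 20.9 and 24.4 RPKM in control and at 22.6, 28.5, 27.9 and 27.0 RPKM in knockout libraries. Knockout library 1 lay among the controls and the other knockout libraries above them all. On the log2 scale it differed by 0.21 (SE 0.071, adjusted p = 0.0287, limma), and this call was fragile. It was lost with median-of-ratios scaling (adjusted p = 0.068) and upper-quartile scaling (adjusted p = 0.0573), with no filter on low values (adjusted p = 0.0659), and without control library 1, 2 or 3 or knockout library 2, 3 or 4 (adjusted p 0.0583 to 0.0845). Without knockout library 1 the log2 fold change was 0.29 (adjusted p = 0.00127). Abi1 and the gene Pdss1 overlap in RefSeq, and Pdss1 was also called higher, with a log2 fold change of 0.18 (adjusted p = 0.0186, limma).

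**Figure D2:**
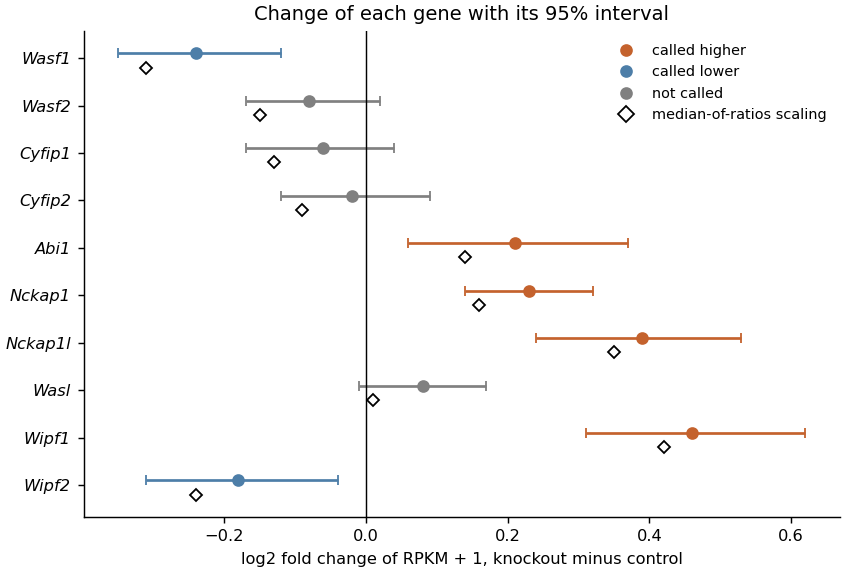
Log2 fold change of RPKM + 1, knockout minus control (horizontal axis), for each gene, with its 95% interval from limma (n = 4 against 4) and, as open diamonds, the value with median-of-ratios scaling. Nckap1l, Wipf1, Nckap1 and Abi1 lie to the right of 0 and Wasf1 and Wipf2 to the left with intervals that exclude 0; the diamonds are shifted to the left for every gene.

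On the N-WASP side, Wasl was at 34.2, 33.7, 33.1 and 33.7 RPKM in control and 33.5, 35.8, 37.3 and 35.9 RPKM in knockout libraries. Knockout library 1 lay within the control range and the other knockout libraries above it. The log2 fold change was 0.08, with a 95% interval of -0.01 to 0.17 (adjusted p = 0.142, limma). It passed the test without knockout library 1 (log2 fold change 0.10, adjusted p = 0.0388), and was 0.01 with median-of-ratios scaling (adjusted p = 0.917). Was, the family member of blood cells, was listed at 0 in every control library and in 3 of the 4 knockout libraries.

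Wipf1, which encodes WIP, the partner that binds and stabilises WASP proteins, rose the most among the 10 genes on the log2(RPKM + 1) scale. It was at 1.56, 1.30, 1.36 and 1.61 RPKM in control and 2.45, 2.46, 2.13 and 2.52 RPKM in knockout libraries. All knockout values exceeded all control values, and the rise was 1.64-fold by mean RPKM, or 0.46 on the log2 scale (SE 0.070, adjusted p = 0.000288, limma), called in all 19 alternatives.

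Wipf2, which encodes the related WIRE (also WICH) protein, moved the other way. Its values were 5.86, 6.63, 6.62 and 6.59 RPKM in control and 5.12, 5.76, 5.96 and 5.41 RPKM in knockout libraries. Control library 1 fell within the knockout range, so the groups overlapped. The level was 86.6% of control (log2 fold change -0.18, SE 0.061, adjusted p = 0.0327, limma). The call was lost without control library 2, 3 or 4 or knockout library 1 or 4 (adjusted p 0.0557 to 0.0899), without control library 4 and knockout library 1 together (adjusted p = 0.0919), and with no filter on low values (adjusted p = 0.0528). It was firmer with median-of-ratios scaling (log2 fold change -0.24, adjusted p = 0.00412).

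The difference between the WIP genes was the widest of the 4 paralog ratios. Wipf1 lies on chromosome 2, where the median log2 fold change was 0.26, and the part of that in this ratio was not tested. There was 3.75, 5.10, 4.87 and 4.10 times as much Wipf2 as Wipf1 RPKM in control libraries 1 to 4, and 2.09, 2.34, 2.80 and 2.15 times as much in knockout libraries. The lowest control ratio lay above the highest knockout ratio, and the ratio fell to 52.7% of control (exact permutation p = 0.0286, two-sided, the smallest possible; 0.0381 adjusted over the 4 ratios). The third WIP gene, Wipf3, known from brain and testis, was the most abundant of the 3, at 15.2 ± 0.548 RPKM in control and 14.8 ± 0.973 RPKM in knockout libraries (SD, n = 4 each), and was not called (adjusted p = 0.574, limma). Summed over the 3 genes, WIP RPKM was 23.1 ± 0.577 and 22.8 ± 1.24, and Wipf1 made up 6.3% of it in control and 10.5% in knockout libraries.

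**Figure D3:**
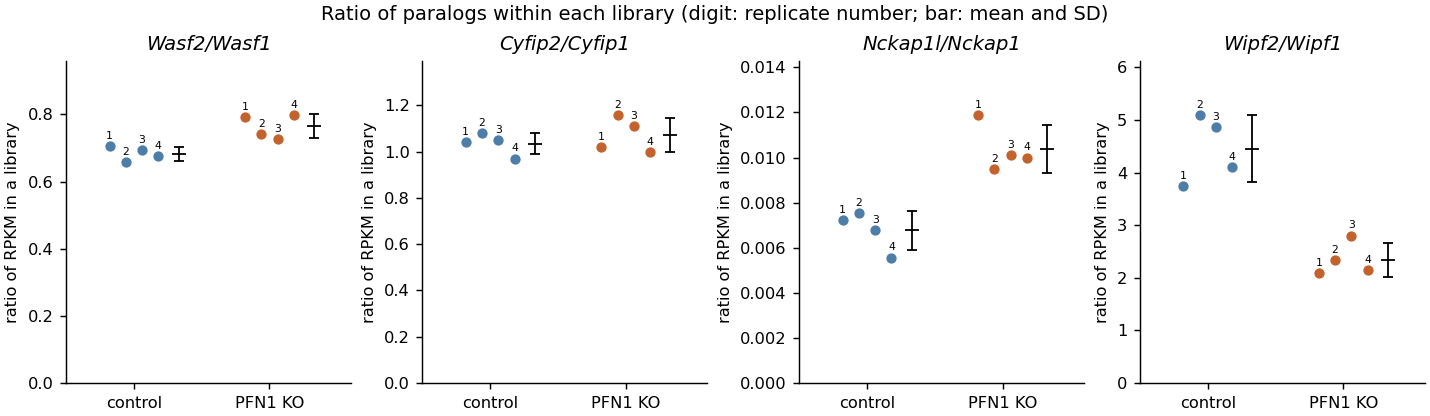
Ratio of the RPKM of 2 paralogs within each library (vertical axes, each starting at 0), for 4 control and 4 PFN1 knockout libraries, with the mean and SD beside each group. The groups are apart for Wasf2/Wasf1, Nckap1l/Nckap1 and Wipf2/Wipf1 and overlap for Cyfip2/Cyfip1. No share was computed for ratios of other gene pairs, and for 41.4% of single tested genes the groups did not overlap.

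The WAVE complex holds 1 member of each of its families, and summed RNA levels per family did not move alike. WAVE RNA (Wasf1, Wasf2 and Wasf3) was at 83.6, 82.6, 82.6 and 83.6 RPKM in control and 71.7, 80.3, 77.8 and 74.8 RPKM in knockout libraries, lower in each of the latter. NCKAP RNA (Nckap1 and Nckap1l) went from 92.8 ± 3.55 to 110 ± 4.75 RPKM and BRK1 RNA from 47.7 ± 1.08 to 55.7 ± 2.56 RPKM (SD, n = 4 each), without overlap. CYFIP RNA, at 33.2 ± 1.09 and 32.2 ± 0.794 RPKM, and ABI RNA, at 45.7 ± 2.44 and 48.6 ± 4.27 RPKM, overlapped between the groups. For 41.4% of single tested genes the groups did not overlap, and no such share was computed for sums. The sums were not rescaled. With median-of-ratios scaling the log2 fold changes of Nckap1, Brk1 and Wasf1 were 0.16, 0.15 and -0.31, against 0.23, 0.22 and -0.24 without it. The ratio of summed NCKAP to summed WAVE RNA was 1.08, 1.13, 1.08 and 1.17 in control and 1.43, 1.41, 1.45 and 1.47 in knockout libraries. The ratio sets the family sum that rose most, at 118% of control, against the one that fell most, at 91.6%. Nckap1 made up 99.3% of NCKAP RNA in control and 99.0% in knockout libraries. It lies on chromosome 2, whose shift is described below. The sums and their ratio include genes of the 10 chosen and are given as a description, with no test.

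Among libraries of 1 group, knockout library 1 was the lowest knockout library for 6 of the 10 genes, namely Wasf1, Wasf2, Wasl, Wipf2, Nckap1 and Abi1. It was the highest for Nckap1l and Cyfip1, and its share of reads from the ribosomal precursor Rn45s was 11.9%, against 8.4 to 9.1% in the other knockout libraries. Among control libraries, library 4 was highest for 4 of the 10 genes and had 9.15% of reads from Rn45s, against 13.2 to 14.2% in the others. Apart from these libraries, the share was higher in each control than in each knockout library. Beyond the rescaled fit given above, what part this share has in the differences between libraries and between groups was not tested.

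Of the 4 genes that were higher, 3 lie on chromosome 2, namely Wipf1, Nckap1 and Abi1, and these are all the members on that chromosome. On chromosome 2, 68.5% of the 947 tested genes were called higher, against 27.0% on the other chromosomes, and the median log2 fold change was 0.26 against 0.04. Nckap1, at 0.23, and Abi1, at 0.21, lay just under that chromosome's median, and 42.7% and 39.2% of its genes had a smaller change. Wipf1, at 0.46, lay above it, with 84.1% of the chromosome's genes below. Among the 5 nearest tested genes on each side, in RefSeq order, 8 of 10 were called higher around Wipf1, 7 of 10 around Nckap1 and 5 of 10 around Abi1, with medians of 0.20, 0.22 and 0.18. The part of the shift along chromosome 2 in the rise of these 3 genes was not tested.

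On other chromosomes, some of the genes lay close to the median of their neighbours and others did not. Wasl was at 0.08 against a neighbour median of 0.06, Cyfip1 at -0.06 against -0.12, and Cyfip2 at -0.02 against 0.02. Nckap1l, on chromosome 15, had 5 tested neighbours, all on the same side of it. Of these, 1 was called higher and 3 lower (median -0.18), while Nckap1l itself was at 0.39. Around Wasf1, on chromosome 10, 0 of 10 neighbours were called higher and 2 lower, with a median of -0.05, against -0.24 for Wasf1 itself. Around Wipf2, on chromosome 11, the counts and the median were the same as around Wasf1, against -0.18 for Wipf2. Wasf2, on chromosome 4, was at -0.08 although 7 of its 10 neighbours were called higher (median 0.16).

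**Figure D4:**
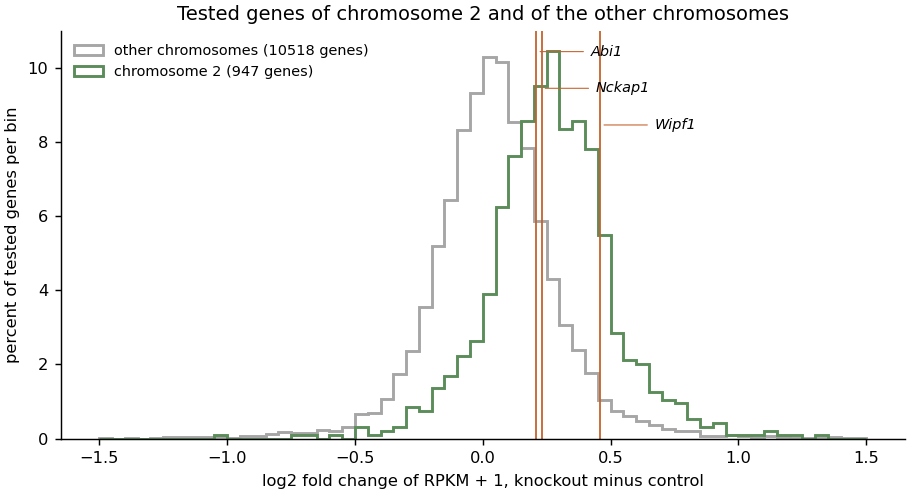
Percent of tested genes per bin of 0.05 (vertical axis) by log2 fold change of RPKM + 1, knockout minus control (horizontal axis, cut at -1.5 and 1.5, which leaves out 18 genes), for 947 genes of chromosome 2 and 10518 others. Vertical lines mark Abi1 and Nckap1, close to the peak of chromosome 2, and Wipf1, to the right of it.

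The rest of the pathway was followed through 6 lists of genes, whose counts stand against 30.4% of all tested genes called higher and 15.5% called lower. With median-of-ratios scaling the counts stand against 22.5% called higher, and 2871 of 11444 tested genes called lower. Of the other WAVE and WASP family genes and subunits, 4 of 6 were tested, and 2 were higher and 0 lower. Brk1 (listed as 6720456B07Rik), the smallest subunit of the WAVE complex, rose from 47.7 ± 1.08 to 55.7 ± 2.56 RPKM, a log2 fold change of 0.22 (adjusted p = 0.0012, limma). Wasf3 was called at 1.10-fold (log2 fold change 0.13, adjusted p = 0.0346), a call lost in 12 of 19 alternatives, among them each of the other scalings and the authors' deposited table (adjusted p = 0.0716). That loss also came without control library 1, 2 or 3 or without any 1 knockout library (adjusted p 0.0536 to 0.0975). Abi2 was at 22.2 ± 0.922 and 21.2 ± 1.55 RPKM and was not called (adjusted p = 0.362).

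Upstream of the WAVE complex, the count of calls lay near the share over all tested genes. Of 15 tested GTPases and exchange factors, 5 were higher, against 30.4% of all tested genes, and 0 lower (median log2 fold change 0.11), whereas median-of-ratios scaling gave 4 higher and 3 lower. Elmo1, which works with DOCK proteins to load Rac with GTP, was at 1.33 ± 0.0828 RPKM in control and 3.46 ± 0.257 RPKM in knockout libraries (SD, n = 4 each), 2.60-fold in mean RPKM, a log2 fold change of 0.94 (adjusted p = 1.18e-06, limma). Trio rose from 18.9 ± 1.13 to 25.6 ± 1.43 RPKM, a log2 fold change of 0.42 (adjusted p = 0.000104) and Tiam2 from 12.8 ± 0.839 to 16.2 ± 0.652 RPKM, a log2 fold change of 0.32 (adjusted p = 0.000647), and both encode exchange factors for Rac. The other calls, named after their values were seen, were Dock3 and, on chromosome 2, Elmo2, at log2 fold changes of 0.32 and 0.15, and that of Elmo2 was lost with median-of-ratios scaling (adjusted p = 0.159). The exchange factor genes Tiam1, Vav2, Vav3 and Arhgef7 were not called, with log2 fold changes of -0.08, 0.11, 0.12 and -0.02. Dock1, a usual partner of ELMO proteins, was listed at 0 in every control library and in 3 of the 4 knockout libraries. Rac1 was at 152 ± 3.24 and 150 ± 3.12 RPKM (adjusted p = 0.688) and Cdc42 at 157 ± 4.39 and 161 ± 7.08 RPKM (adjusted p = 0.449, limma).

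Of 18 tested adaptors and kinases that bind WAVE or N-WASP, 5 were higher and 3 lower (median log2 fold change 0.03), and 4 and 5 with median-of-ratios scaling. Those that fell most were Sh3pxd2a, the podosome scaffold TKS5, from 11.7 ± 0.315 to 8.49 ± 0.428 RPKM, a log2 fold change of -0.42 (adjusted p = 5.36e-05, limma), Crk and Nck2, at log2 fold changes of -0.26 and -0.21. Crk and Nck2 encode SH2 and SH3 adaptors, and the paralog Nck1 was not called (adjusted p = 0.264). Pacsin3, Baiap2l1 and Abl1 rose, with log2 fold changes of 0.40, 0.27 and 0.22; Baiap2l1, a membrane-bending relative of IRSp53, was the most abundant of them, from 292 ± 11.5 to 351 ± 10.6 RPKM. Pacsin3 and Abl1 lie on chromosome 2.

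The Arp2/3 complex subunits on which these activators act were higher for 4 of 10 tested genes and lower for 0 (median log2 fold change 0.10), against 30.4% of all tested genes called higher. The counts were 2 and 1 with median-of-ratios scaling, where 22.5% of all tested genes were called higher. They were 7 and 0 without control library 4 and knockout library 1. Calls of higher among all tested genes then numbered 4415, against 3489 with every library. Arpc5l, on chromosome 2, and Arpc1b led with log2 fold changes of 0.54 and 0.28, followed by Arpc5 at 0.16, whose call was lost with median-of-ratios scaling (adjusted p = 0.0635). Of 8 tested genes of the WASH complex and other nucleation-promoting factors, 3 were higher and 0 lower, or 1 and 1 with median-of-ratios scaling. The WASH subunit genes Washc2 and Washc3 (listed as D6Wsu116e and Ccdc53) were at log2 fold changes of 0.38 and 0.26, and Cttn, the cortactin gene, at 0.14. The calls of Washc3 and Cttn were lost with median-of-ratios scaling (adjusted p = 0.0945 and 0.282). Hcls1, the cortactin of blood cells, was listed at 0 in every library.

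Of 9 tested brakes on Arp2/3, 4 were higher and 0 lower (median log2 fold change 0.09), against 30.4% and 15.5% of all tested genes, or 2 and 2 with median-of-ratios scaling. Pick1, which binds Arp2/3, rose from 12.6 ± 0.743 to 16.7 ± 0.262 RPKM (SD, n = 4 each; log2 fold change 0.38, adjusted p = 9.11e-05, limma). Coro7, a coronin gene, and Arpin (listed as 2610034B18Rik), whose product competes with WAVE for Arp2/3, were at 0.22 and 0.16. The call of Arpin was lost with median-of-ratios scaling (adjusted p = 0.163), and without control library 3 (adjusted p = 0.0612) or knockout library 4 (adjusted p = 0.0515).

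**Figure D5:**
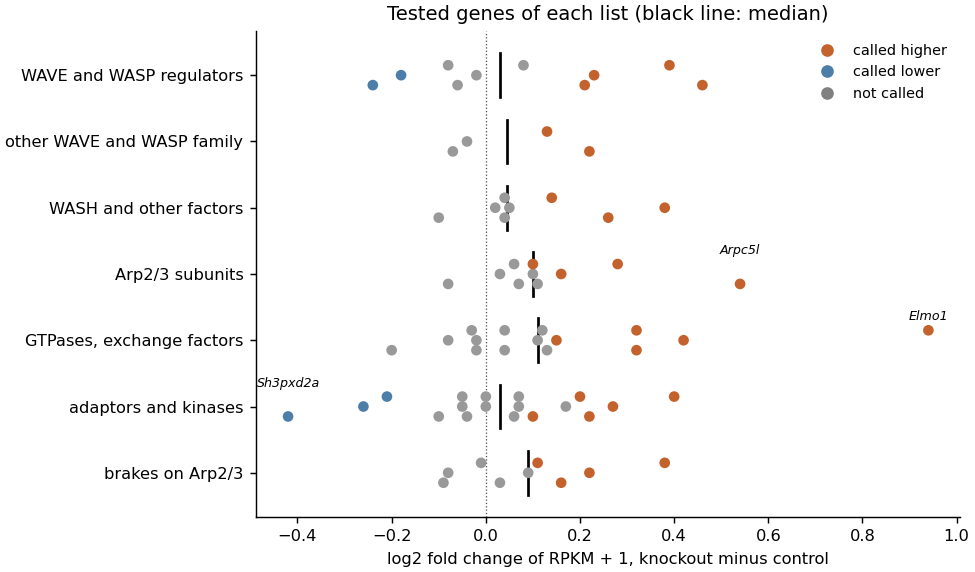
Log2 fold change of RPKM + 1, knockout minus control (horizontal axis), of each tested gene (point) in the 10 regulators and 6 lists of related genes, coloured by call, with the median as a black line. Elmo1 lies farthest to the right, at 0.94, and Sh3pxd2a farthest to the left, at -0.42.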

How the data were processed

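The authors deposited 1 table with an RPKM value per gene and library, and the same deposited table holds their log2 fold change, mean log2 CPM, p-value and adjusted p-value. Per the submitters' processing notes, CASAVA, RSEM, Bowtie, TopHat and edgeR were used, with build hg19 named although the gene numbers are those of mouse genes. Settings, annotation and use of strand in counting are not given in the sources used here. Libraries were stranded and came from total RNA after removal of ribosomal RNA, per the labels. Depth was estimated from the steps between low RPKM values and the authors' mean log2 CPM. Intervals cover the spread between libraries.

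Values were transformed to log2(RPKM + 1) and compared between groups with limma 3.58.1 (R 4.3.3), letting the prior variance follow the mean level and using no covariate. The fit was also run on simulated reads in which few genes changed, as many up as down. That simulation does not cover the many changed genes and the shifts of scaling in these data. A gene was tested at a mean of at least 1 RPKM in 1 group. No count test was run, because the table holds no counts. Paralog ratios were compared with exact permutation tests. The genes and lists were chosen with earlier results of these data known. Of each list, up to 3 called genes with the largest change in each direction are named, and genes listed at 0 throughout. Listed genes were matched by symbol or gene number.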

Additional observations from a re-analysis of the deposited data

Results flagged for a closer look

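With 4 libraries a group, 70 sets of values were searched for a library far from the rest, and chance marks about 1 set in 20. Wipf2 in control library 1 was at 5.86 RPKM, against 6.59 to 6.63 RPKM in the other control libraries. Washc3 (listed as Ccdc53) in knockout library 2 was at 17.7 RPKM, against 22.4 to 23.3 RPKM in the others. In knockout library 1, Arpc1b was at 43.6 RPKM against 41.8 to 42.1 RPKM, and Tiam2 at 15.2 RPKM against 16.5 RPKM in each of the others. Pick1 in knockout library 2 was at 17.1 RPKM, against 16.5 to 16.6 RPKM in the others.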

How the results depend on the processing

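Wasf1, Nckap1, Nckap1l and Wipf1 kept their direction and their call in all 19 alternatives. The number of genes called lower was 1772, against 2871 with median-of-ratios and 2758 with upper-quartile scaling. Of the 10 regulators, 2 were called lower, against 4 with each of those scalings, 1 with no filter on low values, 1 without control library 4 and knockout library 1, and 1 to 2 without any 1 library. Cyfip2, not called in any alternative, had a log2 fold change of 0.0 without control library 4 and knockout library 1, and -0.04 to 0.01 without any 1 library. Without any 1 library the exact test cannot go below 0.0571, and the log2 differences were 0.14 to 0.19 for Wasf2/Wasf1, 0.53 to 0.67 for Nckap1l/Nckap1 and -1.01 to -0.86 for Wipf2/Wipf1. Without control library 4 and knockout library 1 they were 0.14, 0.46 and -0.91 (exact permutation p = 0.1, the smallest possible). With the replicate block they were 0.16, 0.62 and -0.92 (smallest possible p = 0.125, exact sign flips). In the fit with the replicate block, 4 of the 10 were higher and 2 lower, as without it, and Wasf3 lost its call (adjusted p = 0.0638). Whether the replicate numbers pair the libraries is not stated. Deviations from the group means correlated at 0.176, 0.023, -0.192 and -0.084 between libraries of equal number. Only number 1 correlated best with its own. Deviations from means of 4 libraries cannot decide whether the libraries were paired. Of the 10 regulators, Nckap1l and Wipf1 rest on the fewest reads.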
